A study of Mus with 6 samples.

Results

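The pentose phosphate pathway was followed through 8 enzyme genes, taken by symbol as the known enzymes of its 2 branches, with earlier results of these data known: G6pdx, H6pd, Pgls and Pgd of the oxidative branch, and Rpia, Rpe, Tkt and Taldo1 of the non-oxidative branch. All 8 were found among the 18887 genes of the deposited table, and all 8 passed the filter on low values (a normalized count of at least 10 in at least 2 libraries), which 14698 genes passed. The libraries are RiboTag precipitates from whole mouse brain: a tagged ribosomal protein is used to pull down the ribosomes of one cell type, here labelled microglia, with the mRNA bound to them. The 2 controls carry the genotype label Ctr and the titles MG_IP, and the 4 knockouts carry the label KO and the titles IRKO_IP, where IRKO is taken to mean insulin receptor knockout because the series title speaks of lost insulin signalling in microglia. The labels used here name neither the driver of the tag and of the deletion, nor the age and sex of the mice, nor whether animals were pooled. P-values therefore describe the spread among libraries only, and that spread may be technical.

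The pathway branches off glycolysis at glucose 6-phosphate. Its oxidative branch burns that sugar to a pentose and yields NADPH, the reducing agent used by glutathione and thioredoxin reductases, by lipid synthesis and by the oxidase with which phagocytes make superoxide. Its non-oxidative branch shuffles carbon between pentoses and glycolytic sugars in both directions, and supplies ribose 5-phosphate for nucleotides. In brain, both astrocytes and microglia are known to run the pathway.

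The labelled cell type was checked first, because the groups differed widely across the transcriptome. Of 31 homeostatic microglia markers, 30 were higher in IRKO and Mertk lower (median log2 change 1.63), and their sums ranged from 114000 to 143500 for the controls and from 298200 to 420000 for IRKO. All 25 astrocyte markers were present and lower in IRKO (median −3.96), with sums of 1080000 to 1340000 in the controls and 91320 to 123100 in IRKO. Neuron markers had a median of 0.96 (19 of 25 higher), oligodendrocyte markers 0.86 (11 higher and 3 lower of 19), and all 11 tested liver and all 6 tested red blood cell genes were lower in IRKO. Sums of the liver list were 1021 in control replicate 1 and 13670 in control replicate 2, against 33.68 to 93.27 in IRKO. Insr, the targeted gene, had normalized counts of 564.6 and 531.5 for the controls and 290.5 to 365.7 for IRKO (log2 change −0.70 ± 0.135 SE, limma adjusted p = 0.00211). Scaled to the microglia markers, its log2 change was −2.21 (limma adjusted p = 2.39e-09). That scaling put the median of all genes at −1.48, and limma then called 81.1% of all genes lower. In bulk precipitates, fewer cells of a type and less RNA per cell cannot be told apart. The part of these markers in the results below was not tested.

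As deposited, 4 of the 8 enzymes were lower in IRKO (Tkt, G6pdx, Taldo1 and Pgls), 2 were higher (H6pd and Rpia) and 2 did not pass the test (Pgd and Rpe), at a limma adjusted p under 0.05. The same test called 55.6% of all genes, 29.0% lower and 26.6% higher, so a share of 6 in 8 stands against a high background. The members had a median log2 change of −0.35, against 0.02 over all tested genes. For 5 members the 4 IRKO values lay on one side of both controls, 4 below and 1 above, against 67.6% of all genes (34.8% below and 32.8% above). Calls were the same for all 8 with edgeR's quasi-likelihood test on the recovered reads, which called 54.9% of genes. Every change below is on the log2(normalized count + 1) scale, as IRKO minus control. The table of RefSeq genes gives no transcript lengths, so levels are compared between libraries and not between genes.

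**Figure D1:**
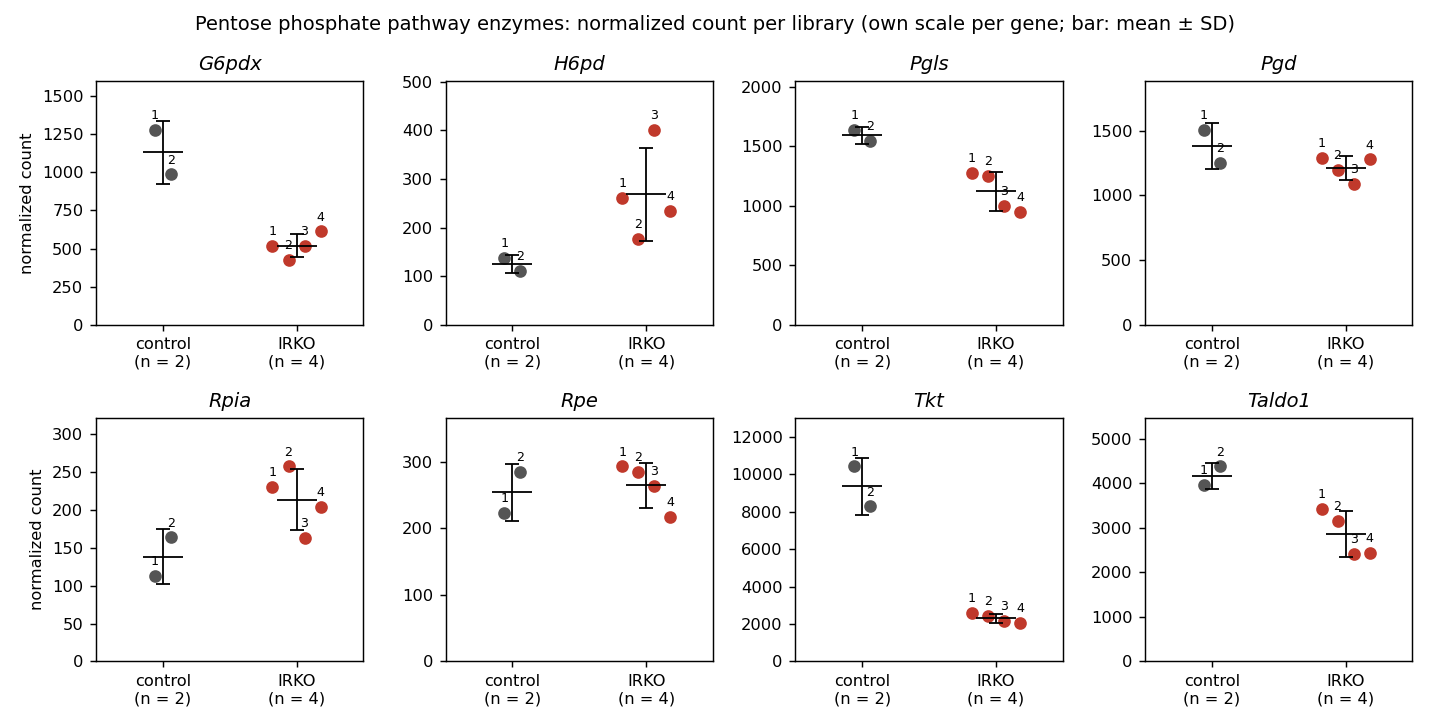
Normalized count of each enzyme in every library, with controls in grey and IRKO in red; digits give the replicate, horizontal marks with error bars give the mean ± SD, and each panel has its own axis from 0. Tkt and G6pdx show a wide gap between the groups, H6pd as deposited lies above both controls in all 4 IRKO libraries, and the groups overlap for Pgd, Rpia and Rpe.

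In the oxidative branch, G6pdx fell and H6pd rose as deposited, though H6pd stood at −0.46 on the log2 scale with libraries scaled to the microglia markers. G6pdx encodes the cytosolic glucose-6-phosphate dehydrogenase, the entry enzyme and main control point of the pathway; it lies on chromosome X from 74409483 to 74428880 (GRCm38.p6). Its normalized count was 1279 and 985.6 in the controls and 517.1, 426.8, 518.8 and 611.7 in IRKO replicates 1 to 4. The highest IRKO library was thus well below the lower control. The means were 1132 ± 207 (SD, n = 2) and 518.6 ± 75.5 (SD, n = 4), 2.18-fold apart, with a log2 change of −1.12 ± 0.165 (SE, limma adjusted p = 0.000456). Among all tested genes, 12.8% had a lower log2 change. G6pdx overlaps Ikbkg in the annotation, and without knowledge of strand some reads of the pair cannot be assigned. Ikbkg itself ranged from 535 to 584 in the controls and from 426 to 515 in IRKO.

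H6pd encodes the bifunctional hexose-6-phosphate dehydrogenase of the endoplasmic reticulum lumen, which carries out the first and second steps there and feeds NADPH to a separate pool (chromosome 4, 149979474 to 150009023). Its counts were 137.2 and 111.3 in the controls and 261.5, 176.4, 401.2 and 234.7 in IRKO. All 4 IRKO libraries were above both controls, but they differed among themselves more than for any other member, with a coefficient of variation of 35.5%. The change was 1.05 ± 0.284 (SE, n = 2 against 4, limma adjusted p = 0.0118), and 88.3% of tested genes had a lower one. Without control replicate 2 the call was lost (0.90, limma adjusted p = 0.0764).

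The cytosolic and the luminal dehydrogenase moved apart, by a ratio within each library that does not depend on the scaling between libraries. There were 9.32 and 8.85 G6pdx counts per H6pd count in the controls, and 1.98, 2.42, 1.29 and 2.61 in IRKO. The 2 controls were close to each other (9.09 ± 0.331, SD), and every IRKO library was below them (2.07 ± 0.583, SD, n = 4).

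Pgls encodes 6-phosphogluconolactonase, which opens the lactone made by G6pdx (chromosome 8, 71592184 to 71596267). The controls held 1639 and 1543, and IRKO replicates 1 to 4 held 1276, 1252, 1002 and 950.6, all below both controls. Replicates 3 and 4 were lower than replicates 1 and 2. The change was small, −0.52 ± 0.146 (SE, limma adjusted p = 0.0143), and the call was lost without control replicate 1 (−0.47, limma adjusted p = 0.0869), and quantile normalization gave −0.26 (limma adjusted p = 0.132), also without a call.

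Pgd encodes 6-phosphogluconate dehydrogenase, the other NADPH-yielding step of the cytosolic branch (chromosome 4, 149149991 to 149166705). Its counts were 1508 and 1254 in the controls and 1290, 1196, 1088 and 1279 in IRKO, so that the groups overlapped. The change of −0.18 ± 0.124 (SE) did not pass the test (limma adjusted p = 0.233), with a 95% interval from −0.46 to 0.10. Pgd had 1.18 and 1.27 counts per G6pdx count in the controls and 2.09 to 2.80 in IRKO, again without overlap. Both dehydrogenases make NADPH in the cytosol, and their transcripts did not keep one proportion in these libraries.

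In the non-oxidative branch, Tkt had the largest change of the 8 as deposited. Tkt encodes transketolase, which moves carbon pairs between sugar phosphates and needs thiamine diphosphate (chromosome 14, 30549131 to 30574724). The controls held 10410 and 8276, and the IRKO libraries 2585, 2439, 2145 and 2070. The IRKO libraries lay close together, with a coefficient of variation of 10.5%, and far below either control. The means were 9343 ± 1510 (SD, n = 2) and 2310 ± 243 (SD, n = 4), a 4.04-fold difference. The log2 change was −2.01 ± 0.142 (SE, limma adjusted p = 5.04e-06), and 5.89% of tested genes had a lower one. It lay above the whole range of the 25 astrocyte markers (−5.13 to −2.69) and below the median of all genes.

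Taldo1 encodes transaldolase, which moves a larger carbon fragment beside transketolase and links the branch to glycolysis (chromosome 7, 141392160 to 141402976). Its counts were 3967 and 4380 in the controls and 3432, 3165, 2406 and 2443 in IRKO. All IRKO libraries were lower than both controls, with replicates 3 and 4 below replicates 1 and 2, as for Pgls. The change was −0.56 ± 0.165 (SE, limma adjusted p = 0.0174). The call was lost without control replicate 2 (−0.49, limma adjusted p = 0.107), as it was with quantile-normalized values (−0.24, limma adjusted p = 0.201).

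Tkt and Taldo1, which act in one reaction sequence, changed to different extents. Tkt had 2.62 and 1.89 counts per Taldo1 count in the controls, and 0.753, 0.770, 0.891 and 0.847 in IRKO. The group means were 2.26 ± 0.519 (SD, n = 2) and 0.816 ± 0.065 (SD, n = 4), and the groups did not overlap.

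The 2 enzymes that interconvert the pentose phosphates did not fall as deposited, and stood at −0.88 (Rpia) and −1.45 (Rpe) on the log2 scale with libraries scaled to the microglia markers. Rpia, ribose-5-phosphate isomerase, makes ribose 5-phosphate for nucleotide synthesis (chromosome 6, 70765720 to 70792175). Its counts were 112.5 and 163.6 in the controls and 229.8, 257.3, 163.2 and 203.6 in IRKO. IRKO replicate 3 and control replicate 2 were at nearly the same level, and the other 3 IRKO libraries were above both controls. The change was 0.63 ± 0.223 (SE, limma adjusted p = 0.0375). This call was lost without control replicate 1 (0.36, limma adjusted p = 0.291) and without IRKO replicates 1, 2 or 4 (limma adjusted p = 0.0709, 0.0861 and 0.0615).

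Rpe, ribulose-phosphate 3-epimerase, makes the xylulose 5-phosphate that transketolase uses as donor (chromosome 1, 66700797 to 66719805). It stood at 223.8 and 284.7 in the controls and at 293.2, 284.9, 264.3 and 217.2 in IRKO, with the groups overlapping. The change was 0.06 ± 0.172 (SE, limma adjusted p = 0.785), with a 95% interval from −0.33 to 0.45. Rpe overlaps Kansl1l in the annotation, whose counts were 108 to 120 in the controls and 97.1 to 134 in IRKO. Rpia and Rpe were sampled by 100 to 296 reads per library, against 2125 to 9254 for Tkt, so their changes are measured less precisely.

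**Figure D2:**
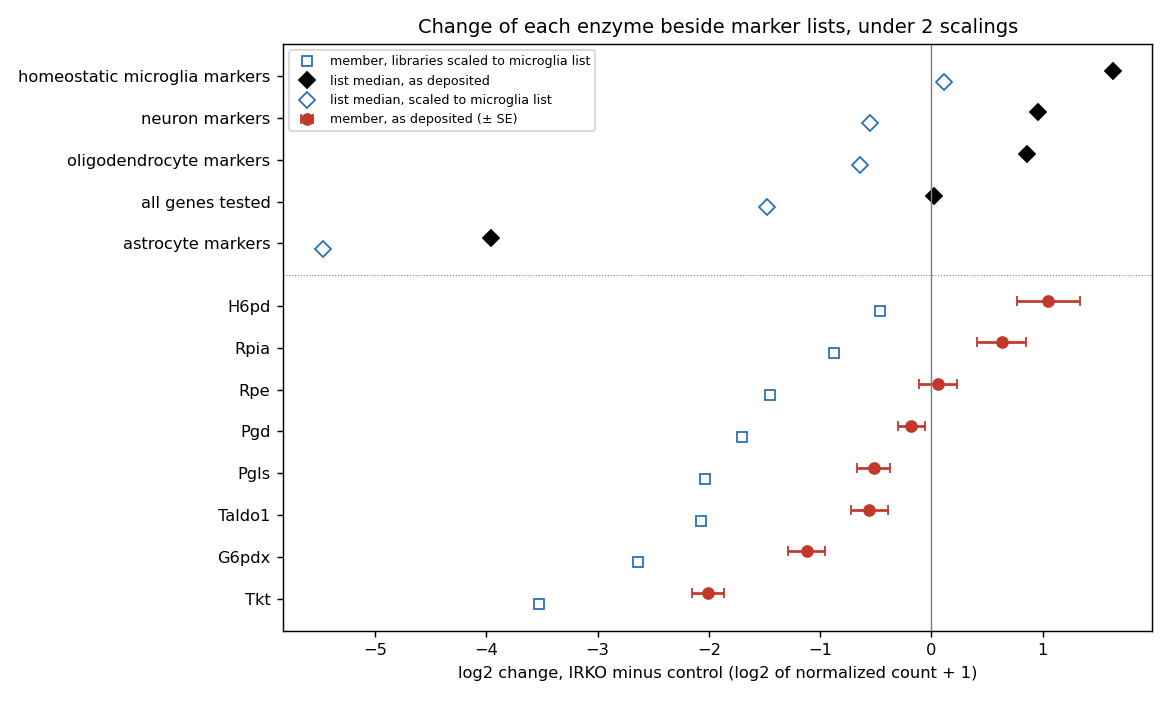
Log2 change of each enzyme (IRKO minus control) as deposited, with its SE (filled circles), and with every library scaled to the homeostatic microglia list (open squares); diamonds give the medians of marker lists under the same 2 scalings. The order of the enzymes runs from Tkt (−2.01) to H6pd (1.05), between the astrocyte median (−3.96) and the microglia median (1.63).

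The direction of several members depended on the scaling. With each library scaled to an equal level of the homeostatic microglia markers, the median of all genes moved to −1.48, and limma called 7 of the 8 enzymes lower, against 81.1% of all genes (and 0.347% higher). Over all genes, 51 were then called higher and 11924 lower, where the deposited scaling gave 3911 and 4262. In this scaling the changes were −3.53 for Tkt, −2.64 for G6pdx, −2.07 for Taldo1, −2.03 for Pgls, −1.70 for Pgd, −1.45 for Rpe, −0.88 for Rpia and −0.46 for H6pd. Only H6pd did not pass (limma adjusted p = 0.184), while Rpia turned from higher to lower (limma adjusted p = 0.00569). A scaling moves all genes of a library alike, so the order of the 8 is the same in both, with H6pd, Rpia and Rpe above the median of all genes and the other 5 below it. Read against microglial marker transcripts, 0 enzymes were called higher in IRKO with limma (0 also at an unadjusted p under 0.05), while H6pd and Rpia were called higher as deposited.

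**Figure D3:**
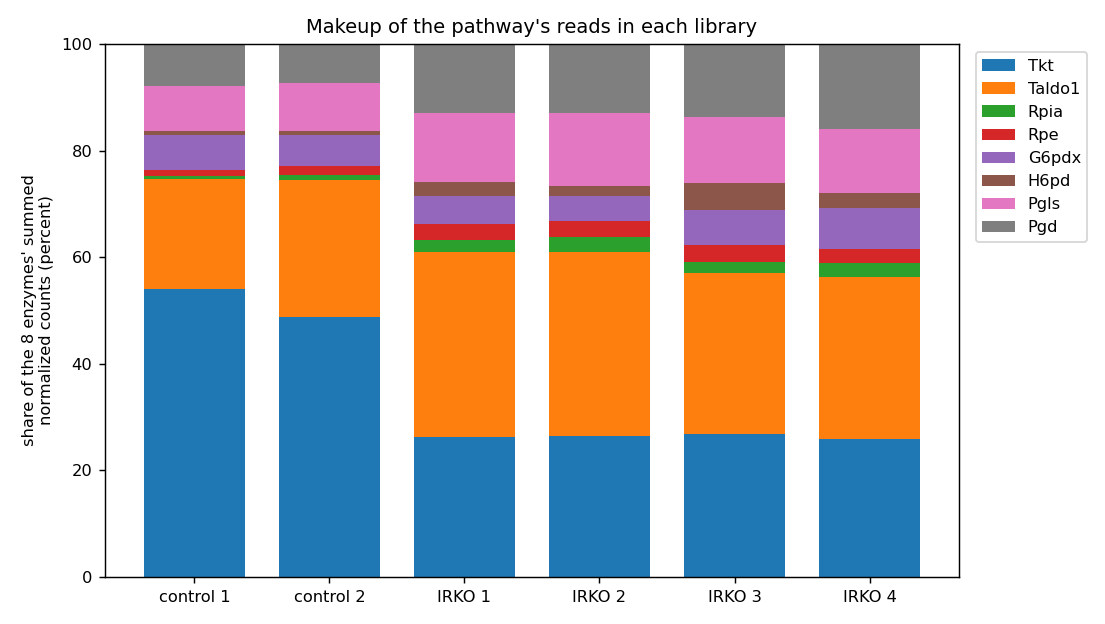
Share of each enzyme in the summed normalized counts of the 8 enzymes, in percent, for each library. Tkt takes 54.0% and 48.7% in the controls and 25.8% to 26.9% in IRKO.

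The makeup of the pathway's reads within a library does not depend on the scaling. The sum of the 8 enzymes, which does depend on the scaling, was 19280 and 17000 for the controls and 7989 to 9885 for IRKO. As a share of all counts in a library this was 0.102% and 0.0924% for the controls and 0.0576% to 0.0692% for IRKO. Tkt made up 51.3% ± 3.76 (SD, n = 2) of the pathway's counts for controls, and 26.3% ± 0.438 (SD, n = 4) for IRKO. Taldo1 was at 20.6% and 25.8% in the controls and 30.1% to 34.7% in IRKO. The share of Pgd in the pathway's counts went from 7.60% ± 0.318 to 13.9% ± 1.40 and that of Pgls from 8.79% ± 0.408 to 12.7% ± 0.727 (SD, n = 2 and 4). Their own normalized counts did not rise as deposited. The control and IRKO means were 1381 and 1213 for Pgd, and 1591 and 1120 for Pgls. G6pdx kept a similar share, 5.80% and 6.63% in the controls and 4.64% to 7.64% in IRKO. The oxidative branch as a whole took 23.7% and 22.9% of the reads in the controls and 33.2% to 38.4% in IRKO. Shares of reads also depend on transcript length, which does not differ between libraries for a given transcript, and they are given as a description without a test.

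Of the drop in the pathway's mean summed count, from 18140 to 8770, Tkt made up 75.1% as deposited. Unlike the shares within a library this depends on the scaling, and it was 56.3% with libraries scaled to the microglia markers, a value added after seeing the data. The sum of the other non-oxidative enzymes, Taldo1, Rpia and Rpe, was 4303 and 4828 in the controls and 2834 to 3955 in IRKO. The sum of the oxidative branch was 4563 and 3894 in the controls and 3010 to 3344 in IRKO.

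Among the members, the profiles of Pgls and Taldo1 were the closest pair. The Euclidean distance between their centred log2 profiles over the 6 libraries was 0.21, and the farthest pair was H6pd and Tkt (3.67). Among the other tested genes, leaving out predicted and non-coding ones, the nearest to Tkt by this measure were Nr1d1, the clock repressor REV-ERB alpha (distance 0.16), and Idh1, the cytosolic NADP-dependent isocitrate dehydrogenase (0.20). Nr1d1 was at 4855 and 3931 in the controls and 1000 to 1321 in IRKO, a change of −1.91. Those nearest to G6pdx were Ptprg, a receptor tyrosine phosphatase (0.06), and Porcn, which lipidates Wnt proteins (0.14). Near to Pgls was Gpat4, an acyltransferase of glycerolipid synthesis (0.09). Taldo1 was nearest to Myg1 (0.09) and C1galt1c1, a chaperone of O-glycan synthesis (0.13), and Pgd to Sphk2, a sphingosine kinase (0.05), and Vac14, a scaffold of phosphoinositide synthesis (0.09). Rpe was nearest to Nap1l1, a histone chaperone (0.09), and Kpna1, a nuclear import receptor (0.10). For H6pd the nearest were Slc38a11 (0.20) and Hsbp1l1 (0.33), and for Rpia Kcp (0.19) and Zfp119b (0.24), all 4 with low counts. With 14698 genes and 6 libraries in 2 groups, near profiles are common, and these are a description.

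**Figure D4:**
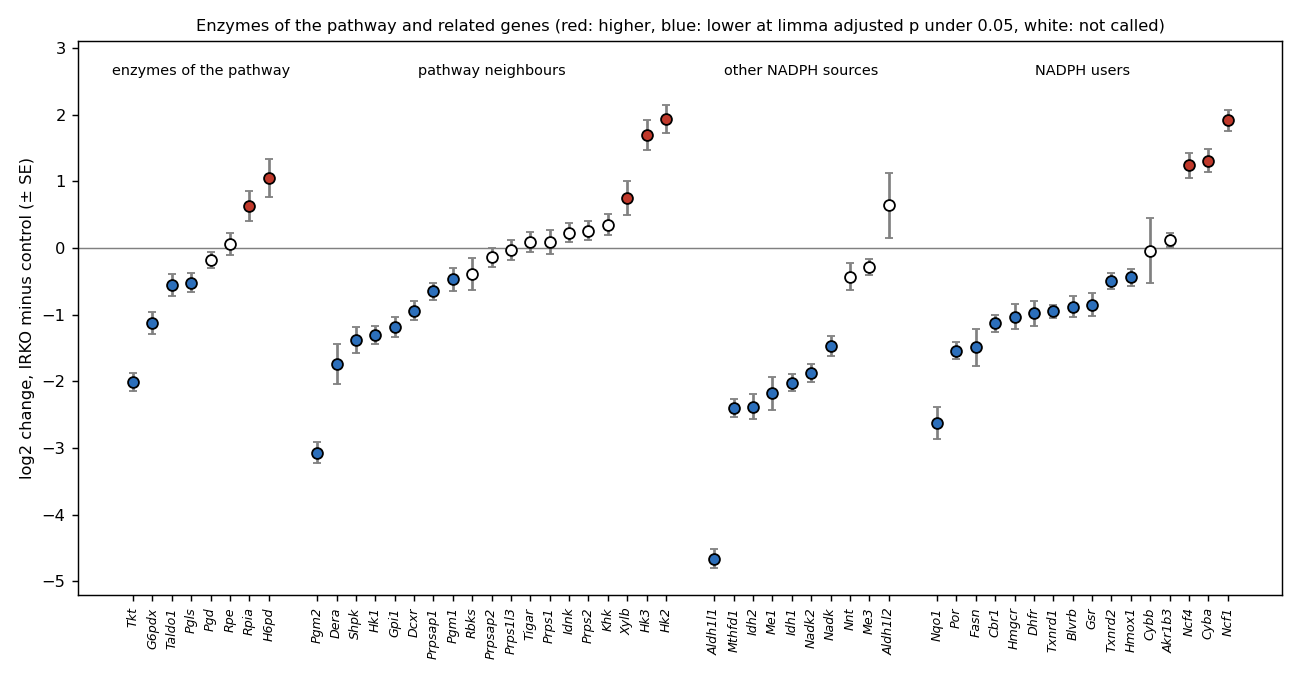
Log2 change (IRKO minus control, ± SE) of the genes reported from the pathway and from 3 lists of related genes; red points were called higher, blue points lower and white points neither at a limma adjusted p under 0.05. All 7 calls among other NADPH sources are below 0, while Ncf1, Cyba and Ncf4 of the phagocyte oxidase lie above 0.

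Genes around the pathway were read from a list of 22 neighbours, of which 19 were tested; 8 were lower in IRKO, 3 higher and 8 did not pass, against 29.0% of all genes lower and 26.6% higher, at a median log2 change of −0.14 (−1.65 after scaling to the microglia markers). Upstream, the genes that supply glucose 6-phosphate split. Hk1, the hexokinase of most tissues, had 3949 and 3533 in the controls and 1314 to 1783 in IRKO (−1.30 ± 0.137 SE, limma adjusted p = 6.68e-05). Hk2, the inducible hexokinase, rose from 263.2 and 160.7 to between 627.6 and 887.1 (1.94 ± 0.211, limma adjusted p = 7.89e-05). Hk3, a hexokinase of myeloid cells, rose by 1.70 ± 0.223. Both rises were no longer called when scaled to the microglia markers (0.43 and 0.19, limma adjusted p = 0.0966 and 0.469).

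Gpi1, the isomerase that takes glucose 6-phosphate into glycolysis and so competes with G6pdx, fell by 1.19 on the log2 scale (SE 0.149). Pgm2, a phosphoglucomutase, had 4851 and 3503 in the controls and 445.5 to 555.7 in IRKO (−3.07 ± 0.154, limma adjusted p = 7.07e-07), a larger change than that of any of the 8 enzymes. Shpk, which makes sedoheptulose 7-phosphate, an intermediate of the non-oxidative branch, changed by −1.38 ± 0.193. Xylb, xylulokinase, rose by 0.75 ± 0.258 (limma adjusted p = 0.0338), but turned to −0.74 when scaled to the microglia markers, and without control replicate 2 it no longer passed (0.56, limma adjusted p = 0.194).

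Downstream of Rpia, the phosphoribosyl pyrophosphate synthetases Prps1 (0.09, limma adjusted p = 0.690) and Prps2 (0.26, limma adjusted p = 0.148) did not pass, and neither did Tigar, a phosphatase that can divert sugar into the pathway (0.09, limma adjusted p = 0.640). Scaled to the microglia markers, all 3 were called lower, Prps1 at −1.42, Prps2 at −1.25 and Tigar at −1.42. So were 81.1% of all genes in that scaling, where the median log2 change of all genes was −1.48. Quantile normalization called Prps2 higher (0.40, limma adjusted p = 0.0334), as it did 4527 of 14698 genes. Prps1, Prps2 and Tigar, and the paralogs next, were named for their role after their values were seen. The transketolase paralogs Tktl1 and Tktl2 had 3 and 16 reads over all 6 libraries and were not tested.

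Other enzymes that yield NADPH, or make NADP, fell or did not pass: of 10 tested, 7 were lower with limma, against 29.0% of all genes (median −1.95, and −3.46 scaled to the microglia markers). The number called higher was 0 with limma (0 at an unadjusted p under 0.05), edgeR and DESeq2. Idh1 had 1968 and 1696 in the controls and 403.2 to 474.5 in IRKO (−2.02 ± 0.123 SE, limma adjusted p = 2.03e-06), close to the change of Tkt. Mthfd1, of the cytosolic folate cycle, changed by −2.40 ± 0.134 and Nadk2, the mitochondrial NAD kinase, by −1.88 ± 0.137. Aldh1l1, a folate dehydrogenase that is also one of the astrocyte markers, changed by −4.66 ± 0.144. G6pdx, at −1.12, and Pgd, at −0.18, changed less than the median of these sources.

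Genes whose products use NADPH moved in both directions. Of 17 tested, 11 were lower, 4 higher and 2 did not pass, against 29.0% of all genes lower and 26.6% higher (median −0.85, and −2.36 scaled to the microglia markers). Among those that rose were subunits of the phagocyte NADPH oxidase: Ncf1 (1.92 ± 0.157 SE), Cyba (1.31 ± 0.171) and Ncf4 (1.24 ± 0.188). Ncf1 had 1182 and 925.6 in the controls and 3426 to 4743 in IRKO. Scaled to the microglia markers, these stood at 0.40, −0.20 and −0.27 in the same order. Cybb, the catalytic subunit, was near the filter at 8.744 to 20.45 counts over the 6 libraries and did not pass (limma adjusted p = 0.950). Among those that fell, Nqo1, a quinone reductase, changed by −2.62 ± 0.240, Por, the electron donor of cytochromes P450, by −1.54 ± 0.123, Cbr1, a carbonyl reductase, by −1.13 ± 0.127 and Txnrd1, thioredoxin reductase, by −0.95 ± 0.100. Ncf4 and Cybb were named for their role in the oxidase, after their values were seen.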

How the data were processed

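The authors' deposited table holds one signal per gene and library, a normalized count: per the file headers and the values, reads per gene divided by 1 size factor per library. Bowtie2 and GRCm38.p6 appear in the submitters' processing notes; for the counting tool and strandedness, not given in the sources used here, no setting is assumed. Values were whole multiples of the value of 1 read (100% within 0.05 reads), giving 13858978 to 19010680 recovered reads per library. Genes with at least 10 in at least 2 libraries were fitted on log2(value + 1) with limma 3.58.1 in R 4.3.3, with a variance trend, two-sided and Benjamini-Hochberg adjusted over 14698 genes. The pseudocount of 1 understates changes of low genes. edgeR 4.0.16 (8068 genes called) and DESeq2 1.42.0 were run on recovered reads, of which IRKO replicate 1, with 0.991 per read, is too near 1 for a step test. No 2 libraries of a group agreed within sampling noise (chi-square per degree of freedom 16.8 to 36.9). In 3 simulated sets of 14698 genes for this comparison, limma called 14.2% of 1.5-fold, 56.0% of 2-fold and 89.6% of 4-fold changes. The changed genes numbered 197, 193 and 192 in the same order over the 3 sets, while 55.6% of genes were called in the data. The adjusted threshold was therefore stricter in the simulated sets than in the data.

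Members and lists were chosen with earlier results of these data known, lists from textbook knowledge. Named genes were the 8 enzymes, Insr, up to 4 called genes of each related list in its larger direction and 3 in the other by smallest p, up to 2 genes of each marker list by smallest p, and the 2 genes nearest to each enzyme in profile; marker genes are mostly given here as lists. Some genes picked by this rule are not reported here, but they count in the lists and medians. Of the symbols, 18542 matched the RefSeq table of GRCm38.p6, which gave coordinates. Of the other marker lists, oligodendrocyte precursor genes had a median log2 change of 0.74, endothelial and mural genes 0.74, choroid plexus and ependyma genes −1.94, border macrophage and monocyte genes 0.08, red blood cell genes −7.01 and liver genes −6.99.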

Additional observations from a re-analysis of the deposited data

Results flagged for a closer look

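Among 44 values checked over the 4 IRKO libraries, 3 had a library set apart from the others by more than Dixon's critical value for 4 samples; chance alone flags about 1 in 20 groups. The ratio of Tkt to Pgd was 1.62 in IRKO replicate 4 and 1.97 to 2.04 in the other IRKO libraries, against 6.60 and 6.90 in the controls. Idh1 was lowest in IRKO replicate 4, at 403.2. Cldn10, an astrocyte marker, was highest in IRKO replicate 3, at 262.3.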

How the results depend on the processing

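The falls of Tkt (−3.53 to −1.67) and G6pdx (−2.64 to −0.92) were called under every alternative run. Why other calls changed with the setting was not tested. With libraries scaled to the microglia markers, H6pd was at −0.46, Pgd at −1.70, Rpia at −0.88 and Rpe at −1.45. The enzymes then had 0 called higher and 7 lower, at a median of −1.86. Of all genes, 0.347% were called higher and 81.1% lower in this scaling, at a median of −1.48. The medians and counts of the related lists were then −1.65 for neighbours (0 higher, 17 lower), −3.46 for NADPH sources and −2.36 for NADPH users (0 higher), and Xylb (−0.74) and Cyba (−0.20) turned negative. Quantile normalization left 2 enzymes lower, with Pgls at −0.26, Taldo1 at −0.24, the members' median at −0.09 and that of NADPH sources at −1.75. Pgd, not called, stood at 0.06. Over all 14698 genes, that run called 3559 lower and 4527 higher, at a median of 0.12. Rpia lost its call with no filter (0.63, limma adjusted p = 0.05), no variance trend (0.63, limma adjusted p = 0.0592), and edgeR and DESeq2 on 5 libraries without IRKO replicate 1 (0.61 and 0.60), added after seeing the data, each leaving 1 enzyme higher. With the replicate block, Pgls was at −0.33 and Taldo1 at −0.34 without a call, leaving 2 enzymes lower, and the median of NADPH users was −0.64; 6935 genes were called in all. Deviations of same-numbered libraries from their group means had r = −0.082 and 0.079 across genes. With 2 controls these deviations mirror each other, so both values rest on 1 control contrast. Whether same-numbered libraries share a preparation was not tested. Leaving out each library in turn gave log2 changes of −0.58 to −0.44 for Pgls, 0.36 to 0.90 for Rpia, 0.83 to 1.23 for H6pd, −0.65 to −0.48 for Taldo1, −0.32 to −0.05 for Pgd and −0.11 to 0.23 for Rpe, with 1 to 2 enzymes called higher, 3 to 4 lower and 6113 to 7813 genes in all. Over the same exclusions the group difference of the Tkt to Taldo1 ratio was −1.81 to −1.07, that of the share of Tkt −27.7 to −22.3 percentage points, and that of the oxidative share 11.6 to 13.3. The controls number 2, which limits every comparison, and without either of them the lone control is assumed to vary like IRKO. The per-length version of the shares was not run. The simulated sets changed far fewer genes than were called in the data and pooled genes of all levels. Their rates therefore do not measure detection for Pgd or Rpe. As deposited, the 95% intervals were −0.46 to 0.10 for Pgd and −0.33 to 0.45 for Rpe, and changes within them may have gone undetected.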
